A study of Mus musculus with 2 samples.

Results

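The genes described here are 55 genes of BMP, activin and TGF-beta signalling in the embryonic mouse kidney, out of 43346 mouse genes in the deposited tables. They were listed by symbol and matched to Ensembl identifiers with the GENCODE M21 annotation, and all 55 were found. They comprise 20 ligand subunits, 12 receptors and co-receptors, 8 SMAD proteins, 11 modulators that act on ligands or receptors, and the 4 Id genes. The study sequenced total RNA from kidneys of B6NCrl embryos at 15.5 days of development, in a single group with 2 replicate pools and no treatment. The replicate 1 pool came from 78 embryos and the replicate 2 pool from 62, with males and females mixed in both and 10 ng of RNA put into each library. Each value is therefore an average over many embryos and over all cell types of the dissected organ, and a lower value can mean fewer cells of a type or less RNA per cell, which cannot be told apart.

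In this pathway a secreted dimer brings together type I and type II receptor kinases, and the activated type I receptor phosphorylates SMAD proteins. BMP receptors mainly use SMAD1, SMAD5 and SMAD9, TGF-beta and activin receptors mainly use SMAD2 and SMAD3, and both classes join SMAD4 to enter the nucleus. In the developing kidney BMP7 is known for keeping nephron progenitors alive, BMP4 for restraining budding of the ureteric epithelium and for ureteral smooth muscle, and the antagonist gremlin 1 for relieving BMP4 at the ureteric bud.

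The libraries held 36244861 and 39415002 expected counts in replicates 1 and 2. Markers of kidney compartments were present in both. The summed TPM was 185 and 178 for nephron progenitor genes (Six2, Cited1, Eya1), 321 and 305 for the ureteric tree (Ret, Wnt11, Gata3, Krt8), 53.8 and 57.0 for podocytes (Nphs1, Podxl) and 109 and 119 for endothelium (Pecam1, Kdr, Cdh5). All genes in these 4 lists were detected. TPM is a relative transcript abundance adjusted for length, so levels of different genes can be compared. Where 2 TPM values follow a gene, the first is the replicate 1 pool and the second the replicate 2 pool.

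A gene counted as detected when each of the 2 libraries gave it at least 1 TPM. By that measure 46 of the 55 signalling genes (83.6%) were detected, against 62.3% of 21461 nuclear protein-coding genes. Of the 9 others, 7 were below 1 TPM in both libraries (Bmp8a, Bmp8b, Gdf5, Gdf6, Gdf15, Inhbb and Grem1), and Gdf7 and Nog reached it in a single library. At the other end, 26 genes were at 10 TPM or more in both libraries and 3 of the Id genes at 100 or more. The median mean level of the detected signalling genes was 14.3 TPM, against 19.5 TPM over detected protein-coding genes. With a single group there is no contrast between conditions, so no p-value was computed, and differences were read against the spread between the pools.

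**Figure D1:**
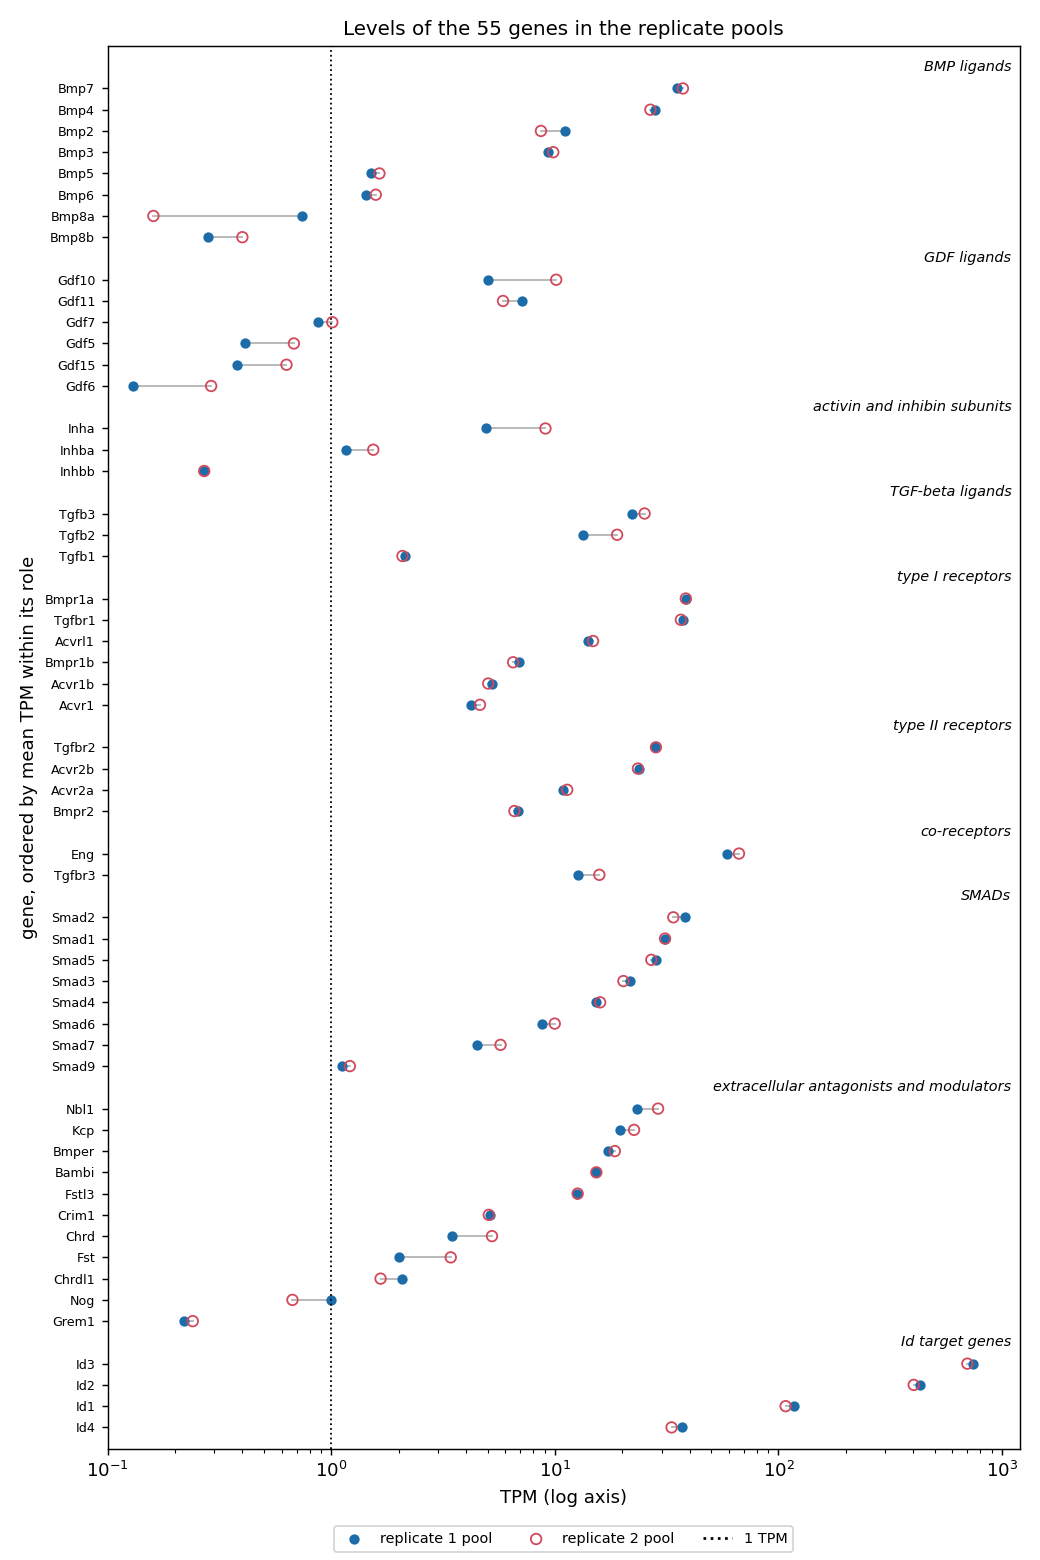
TPM of the 55 genes on a log axis, grouped by role and ordered by mean within each role; filled points are the replicate 1 pool, open circles the replicate 2 pool, and the dotted line marks 1 TPM. The Id genes stand above all other roles apart from Id4, which overlaps the range of receptors and ligands, and 7 genes lie below 1 TPM in both pools.

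Among BMP ligands, Bmp7 and Bmp4 held most of the signal. Bmp7 (chromosome 2, 172868012 to 172940321, mm10) was at 35.15 and 37.36 TPM. Bmp4 (chromosome 14, 46383520 to 46390669) was at 27.96 and 26.73 TPM. Together they made up 72.2% and 74.2% of the summed TPM of the 8 BMP ligand genes, which was 87.4 and 86.4. The ordering of the pair was not resolved, since the log2(TPM + 1) difference of Bmp7 over Bmp4 was 0.39 ± 0.105 (SD, n = 2) and the replicate error at that level is 0.37. Replicate error here is the size of log2 ratio between the libraries below which 95% of genes in the same range of mean TPM lie, and a pair was called different only where both libraries exceeded it in the same direction.

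Bmp2, a close relative of Bmp4, was at 11.08 and 8.66 TPM, and lay below Bmp4 by 1.39 ± 0.184 on the log2 scale, past the error of 0.79. Bmp3, an unusual member that opposes other BMPs, was at 9.27 and 9.83 TPM and could not be ordered against Bmp2. Bmp5 (1.51 and 1.64 TPM) and Bmp6 (1.43 and 1.58 TPM) followed, with Bmp3 over Bmp5 by 2.03 ± 0.00265. The last positions were taken by Bmp8a at 0.74 and 0.16 TPM, from 34.9 and 8.36 counts, and Bmp8b at 0.28 and 0.40 TPM. Those genes are close paralogs whose reads the quantifier had to share out, so their separate values are uncertain.

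The GDF ligands were led by Gdf10 and Gdf11, whose order differed between the pools. Gdf11, which is known to be needed for ureteric bud formation, was at 7.15 and 5.86 TPM, whereas Gdf10, also called Bmp3b, was at 5.04 and 10.13 TPM. The log2 difference of Gdf11 over Gdf10 was 0.43 in replicate 1 and -0.70 in replicate 2. Gdf7, known for roles in neural and tendon development, was at 0.87 and 1.01 TPM. The joint factors Gdf5 (0.41 and 0.68 TPM) and Gdf6 (0.13 and 0.29 TPM) and the stress-induced Gdf15 (0.38 and 0.63 TPM) were below 1 TPM in both libraries. Gdf11 exceeded Gdf7 by 1.95 ± 0.249, past the error of 0.92, while genes at or below about 1 TPM, as Gdf7 and those under it are, can hardly be ordered with a pseudocount of 1.

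The inhibin alpha subunit was the highest of its family. Inha, whose product joins a beta subunit to make inhibin, an activin antagonist, was at 4.93 and 9.07 TPM. Inhba, the subunit of activin A, was at 1.16 and 1.54 TPM, from 42 and 59 counts. Inhbb, the subunit of activin B, was at 0.27 TPM in both libraries, from 27 and 30 counts. Inha exceeded Inhba by 1.72 ± 0.375 on the log2 scale, past the error of 0.92, whereas Inhba over Inhbb, at 0.88 ± 0.165, was resolved only with a pseudocount of 0.1 or in the replicate 2 library alone.

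TGF-beta ligands stood in the order Tgfb3, Tgfb2, Tgfb1, and each step exceeded replicate error. Tgfb3 was at 22.21 and 25.18 TPM. Tgfb2, whose loss in mice is known to disturb kidney formation, was at 13.32 and 18.97 TPM. Tgfb1, the isoform best known in fibrosis and immunity, was at 2.13 and 2.08 TPM. The log2 difference was 0.54 ± 0.216 for Tgfb3 over Tgfb2 (error 0.37) and 2.45 ± 0.356 for Tgfb2 over Tgfb1 (error 0.92). Much of the Tgfb2 value came from transcripts that do not encode the protein, as described with the transcript shares.

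Type I receptors showed nearly the same level in both pools, with ratios of replicate 2 to replicate 1 between 0.938 and 1.09. Bmpr1a, the broadly used BMP receptor kinase, was at 38.49 TPM in both libraries. Tgfbr1, the kinase for TGF-beta, was at 37.21 and 36.59 TPM and could not be ordered against Bmpr1a. Acvrl1, known from endothelium, was at 14.00 and 14.81 TPM, below Tgfbr1 by 1.30 ± 0.0703 with an error of 0.37. The remaining receptors formed a lower set with no resolved step between neighbours, Bmpr1b at 6.93 and 6.50 TPM, the activin receptor Acvr1b at 5.25 and 5.03 TPM, and Acvr1, which also serves BMPs, at 4.22 and 4.62 TPM. Bmpr1a exceeded its paralog Bmpr1b by 2.36 ± 0.0569. Summed TPM was 63.6 and 64.4 over Bmpr1a, Bmpr1b, Acvr1 and Acvrl1, the receptors that signal to SMAD1, SMAD5 and SMAD9, and 42.5 and 41.6 over Tgfbr1 and Acvr1b.

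Type II receptors were as even between pools, with ratios between 0.966 and 1.04. Tgfbr2, the TGF-beta receptor that starts the complex, was at 28.15 and 28.30 TPM. The activin and BMP receptor Acvr2b was at 23.85 and 23.51 TPM, not resolved from Tgfbr2. Its paralog Acvr2a was at 10.91 and 11.35 TPM, below Acvr2b by 1.02 ± 0.0511 with an error of 0.37. The annotated Acvr2b transcripts were only 1696 and 1729 nt long, of which 1608 and 1584 nt were coding, so this level rests almost wholly on reads in coding sequence, and the effect of that on the comparison was not tested. Bmpr2, the BMP-specific receptor, was at 6.82 and 6.59 TPM and was not resolved from Acvr2a.

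The co-receptors hold ligand without a kinase of their own. Endoglin (Eng), known from endothelium, was at 58.92 and 66.56 TPM, the highest level of any receptor gene in the set. Betaglycan (Tgfbr3), which presents TGF-beta and also binds inhibin, was at 12.73 and 15.80 TPM, below Eng by 2.07 ± 0.0834 with an error of 0.37.

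**Figure D2:**
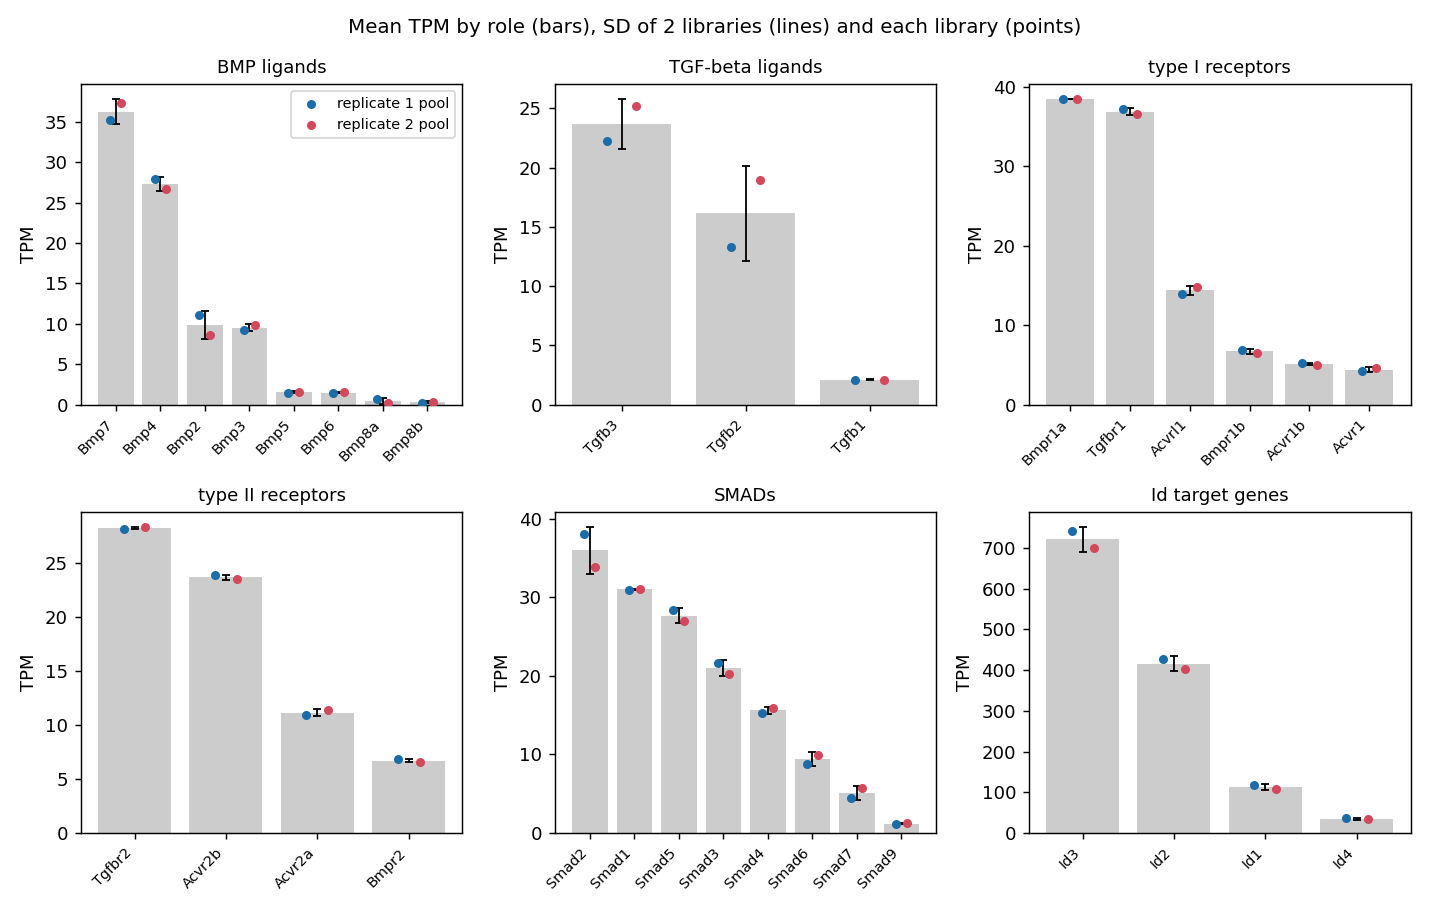
Mean TPM of genes in 6 roles; bars are the mean of the 2 pools, vertical lines the SD (n = 2) and points the single libraries, on linear axes that start at 0. Bmp7 and Bmp4, Bmpr1a and Tgfbr1, and Id3 and Id2 are the tallest bars of their panels, and Smad9 is the shortest of the SMADs.

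The SMADs of both branches were present at similar summed levels. Smad1 was at 30.96 and 31.08 TPM, Smad5 at 28.33 and 26.99 TPM, and Smad9 at 1.12 and 1.21 TPM, which gave the BMP branch a sum of 60.4 and 59.3. Smad1 and Smad5 were not resolved from each other, whereas Smad5 exceeded Smad9 by 3.73 ± 0.0901 on the log2 scale. Smad2 was at 38.06 and 33.85 TPM and Smad3 at 21.67 and 20.25 TPM, which gave the TGF-beta and activin branch a sum of 59.7 and 54.1. Smad2 exceeded Smad3 by 0.75 ± 0.0504, past the error of 0.37.

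Smad4, the shared partner of both branches, was at 15.30 and 15.93 TPM, below Smad5 by 0.79 ± 0.0864. The inhibitory SMADs were lower, with Smad6, which mainly limits BMP signals, at 8.72 and 9.98 TPM and Smad7, which limits both branches, at 4.48 and 5.71 TPM. The pair was at the limit, at 0.77 ± 0.0822 with an error of 0.79. It was resolved with a pseudocount of 0.1, with FPKM, with the error of protein-coding genes and in the replicate 1 library alone. The order of the 8 SMAD genes held 2 resolved steps, Smad5 over Smad3 at 0.38 ± 0.0183, just past the error, and Smad7 over Smad9 at 1.49 ± 0.164.

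Among the modulators, the secreted BMP antagonists gremlin 1 and noggin were the lowest. Grem1 (gremlin 1) was at 0.22 and 0.24 TPM, from 22 and 26 counts. Nog (noggin) was at 1.00 and 0.67 TPM, from 39 and 28 counts. The pair was not resolved, but with a pseudocount of 1 genes at or below 1 TPM can hardly differ past the error, and with 0.1 it was. Grem1 lay below Bmp4, a ligand it binds, by 4.53 ± 0.0609 on the log2 scale, with an error of 0.92. The BMP-binding proteins chordin (Chrd) and chordin-like 1 (Chrdl1) were at 3.46 and 5.23 TPM and at 2.08 and 1.66 TPM, and that pair was not resolved.

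A second set of modulators reached 10 TPM or more in both libraries. The DAN family member Nbl1 was at 23.29 and 28.93 TPM. Kcp, known to strengthen BMP and weaken TGF-beta signalling, was at 19.51 and 22.59 TPM, though few of its transcripts were annotated as protein-coding. Bmper, a chordin-like regulator that can act in either direction, was at 17.35 and 18.53 TPM, and the membrane pseudoreceptor Bambi at 15.19 and 15.32 TPM. Fstl3, an activin-binding relative of follistatin, was at 12.59 and 12.64 TPM. Neighbours in this order did not differ past replicate error from Nbl1 down to Fstl3.

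Crim1, a membrane protein that binds BMPs, was at 5.10 and 5.06 TPM, below Fstl3 by 1.16 ± 0.0105 and below Bmp7 by 2.61 ± 0.0672, with an error of 0.79 for each. Follistatin (Fst), the main activin antagonist, was at 2.01 and 3.42 TPM, from 110 and 202 counts. Fst lay below Fstl3 by 1.90 ± 0.388 and was not resolved from its ligand subunit Inhba at 0.64 ± 0.227.

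The Id genes, classical transcriptional targets of BMP and SMAD signalling that encode inhibitors of helix-loop-helix factors, gave the highest values in the set. Id3 was at 742 and 700 TPM, rank 134 of 21461 nuclear protein-coding genes by mean TPM. Id2 was at 428 and 403 TPM, rank 284, and Id1 at 117 and 108 TPM, rank 1364. Id4 was at 36.90 and 33.25 TPM, rank 4421. All 3 steps of this order were resolved, at 0.79 ± 0.00278 for Id3 over Id2, 1.88 ± 0.0243 for Id2 over Id1 and 1.65 ± 0.0156 for Id1 over Id4. All 4 were lower in the replicate 2 pool, with ratios from 0.901 to 0.942, which is within the replicate error of their levels.

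Over the 33 gene pairs examined, 21 differed past replicate error in both libraries and 12 did not. Along the order of levels within the roles, 16 of 45 neighbouring steps were resolved and 29 were not. These sets share pairs, and neighbours by rank lie close by construction. The error was widest for scarce genes, at 0.92 on the log2 scale (1.89-fold) for means of 1 to 3 TPM against 0.25 (1.19-fold) above 100 TPM.

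Other genes of the pathway were read from fixed lists of further members. Of 12 further ligands matched, 2 were detected, the oocyte factor Gdf9 at 1.84 and 1.80 TPM and the Nodal inhibitor Lefty1 at 1.06 and 1.05 TPM. These values rest on few counts, 41 and 49 for Gdf9 and 23 and 42 for Lefty1. The estimated length of Lefty1 was 989 nt in replicate 1 and 1620 nt in replicate 2, so its counts were less even than its TPM. The next highest was Mstn (myostatin), a muscle growth inhibitor, at 0.60 and 0.31 TPM. Bmp10 and Inhbe had 0 counts in both libraries, which allows up to 3 counts in each. Of 7 further receptors and co-receptors, 3 were detected, led by the netrin and RGM receptor Neo1 at 19.24 and 19.97 TPM and the BMP co-receptors Rgmb and Rgma at 10.10 and 11.99 and at 5.30 and 6.61 TPM.

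Genes of ligand processing and latency were more often detected, at 16 of 19. The matrix protein Emilin1, which limits TGF-beta maturation, was at 215 and 252 TPM, the integrin subunit Itgav, which takes part in TGF-beta activation, at 85.94 and 81.87 TPM, and the chordin-cleaving protease Bmp1 at 35.69 and 40.03 TPM. Of 11 further secreted antagonists and modulators, 4 were detected. The highest were Fstl1 at 463 and 469 TPM, Twsg1, a chordin partner, at 94.14 and 93.99 TPM, and Sostdc1 at 84.51 and 81.35 TPM. Each of the 3 was thus above every antagonist or modulator among the 55 genes, the highest of which was Nbl1.

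Of 20 intracellular regulators, 19 were detected, led by Fkbp1a, which binds type I receptors, at 579 and 578 TPM, and the SMAD co-repressors Tgif1 at 73.45 and 71.26 TPM and Tgif2 at 50.89 and 55.49 TPM. Of 10 further target genes, 7 were detected, led by the collagen Col1a1 at 902 and 908 TPM, Tgfbi at 99.08 and 107 TPM and the cell cycle inhibitor Cdkn1a at 75.16 and 58.51 TPM. None of the further pathway genes in these 6 lists differed 1.5-fold between the pools with 100 counts or more. Under that count some did, in both directions. Dlx5 was lower in replicate 2, at 2.78 and 0.29 TPM from 90 and 10 counts. Amhr2 was higher, at 0.62 and 1.37 TPM from 21 and 59 counts.

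The pools were compared by calling a gene different when its TPM ratio was 1.5 or more in either direction with a mean expected count of 100 or more. Of the 44 signalling genes with that count, 4 (9.09%) differed, against 3.15% of 13447 genes in all. All 4 were higher in the replicate 2 pool, a direction found for 2.11% of genes. Gdf10 (chromosome 14, 33923587 to 33937983) was 2.01-fold higher, with 297 and 643 counts and a 95% exact interval of 1.73 to 2.29 for the count ratio of 1.99. Inha (chromosome 1, 75507077 to 75510366) was 1.84-fold higher, with 166 and 329 counts and an interval of 1.51 to 2.21. Fst (chromosome 13, 114452290 to 114458951) was 1.70-fold higher, with 110 and 202 counts and an interval of 1.33 to 2.15.

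Chrd (chromosome 16, 20733127 to 20742384) was at the limit, 1.51-fold higher with 272 and 443.8 counts and an interval of 1.29 to 1.75. It fell out of the call when counts were scaled with TMM or DESeq2 factors, which left 3 genes. The intervals are Clopper-Pearson intervals and cover counting error only. The pools are 2 samples of the same group, so these ratios describe the pools and have no replicate check. Measured against the replicate error of their level instead, 3 of the 46 detected signalling genes differed between the pools. By definition 95% of detected genes lie within that error, so a few past it are found in any set of this size. The 3 genes were Gdf10 (log2 ratio 1.01) and Inha (0.88), both past an error of 0.79, and Tgfb2. The Tgfb2 TPM ratio of 1.42 (0.51) is past its error of 0.37 but under 1.5-fold. Its count ratio was lower, at 1.24 with an interval of 1.14 to 1.35. The estimated length of Tgfb2 was 3014 nt in replicate 1 and 2653 nt in replicate 2. Fst (0.77 against 0.92) and Chrd (0.60 against 0.79) lay within the replicate error. Of the genes below 1 TPM, Bmp8a (-2.21) and Gdf6 (1.16) were past the error of the lowest bin, 0.92, on few counts. The median absolute log2 ratio of the 44 was 0.095 against 0.102 for all genes with that count.

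**Figure D3:**
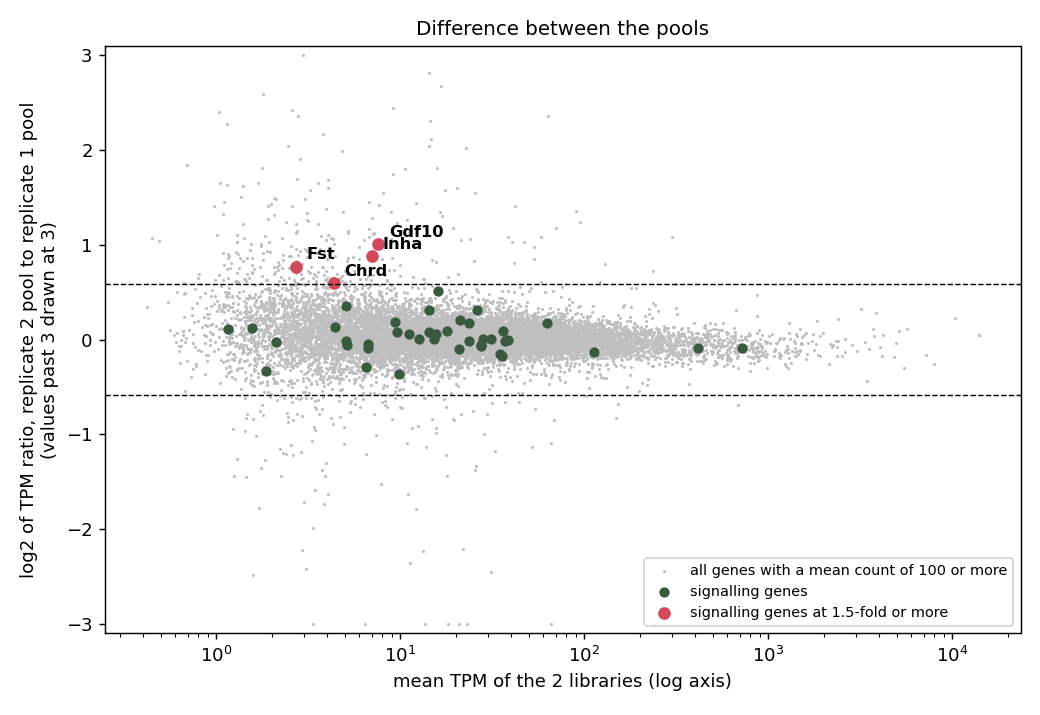
Log2 of the TPM ratio of the replicate 2 pool to the replicate 1 pool against mean TPM (log axis) for genes with a mean count of 100 or more and TPM above 0 in both; grey points are all genes, green points signalling genes, red points the 4 past the dashed 1.5-fold lines. Gdf10, Inha, Fst and Chrd all lie on the upper side.

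Markers of other tissues differed between the same pools. Summed TPM went from 37.9 to 125 for the adrenal cortex list (Cyp11a1, Hsd3b1, Star, Nr5a1, Cyp21a1), a ratio of 3.29, and from 15.8 to 93.4 for adrenal medulla and nerve (Th, Chga, Chgb, Dbh), a ratio of 5.93. All 5 adrenal cortex genes and all 4 of adrenal medulla and nerve were called different, each higher in replicate 2. Smooth muscle genes (Acta2, Myh11, Tagln) went from 237 to 502, with 3 of 3 called, and liver genes (Afp, Alb, Trf, Apoa1, Ttr) from 211 to 416, with 4 of 5 called. Skeletal muscle genes (Acta1, Ckm, Tnnt3, Myh3, Myog) ran the other way, from 295 to 160, with 4 of 5 called. In the cartilage and bone list (Col2a1, Acan, Sox9, Runx2, Sp7), which went from 61.4 to 46.9, Runx2 and Sp7 were called lower.

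Kidney lists moved less, with ratios of 0.96 for nephron progenitors, 0.953 for the ureteric tree, 1.06 for podocytes, 1.09 for endothelium and 1.37 for stroma (Foxd1, Pdgfra, Col3a1), and macrophage genes (Csf1r, Lyz2, C1qa) had a ratio of 1.12. No gene of these 6 lists was called different. Col3a1 made up 95.1% and 95.9% of the stroma sum. Its ratio was 1.39, past the replicate error of its level, while Foxd1 (1.04) and Pdgfra (1.17) lay within theirs. Gonad genes (Sry, Ddx4, Dazl, Amh, Insl3, Gata4) summed to 1.97 and 2.46 TPM, with 1 of 6 detected and Sry at 0 in both. The part that adrenal, smooth muscle or liver tissue has in the higher Gdf10, Inha, Fst and Chrd was not tested.

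**Figure D4:**
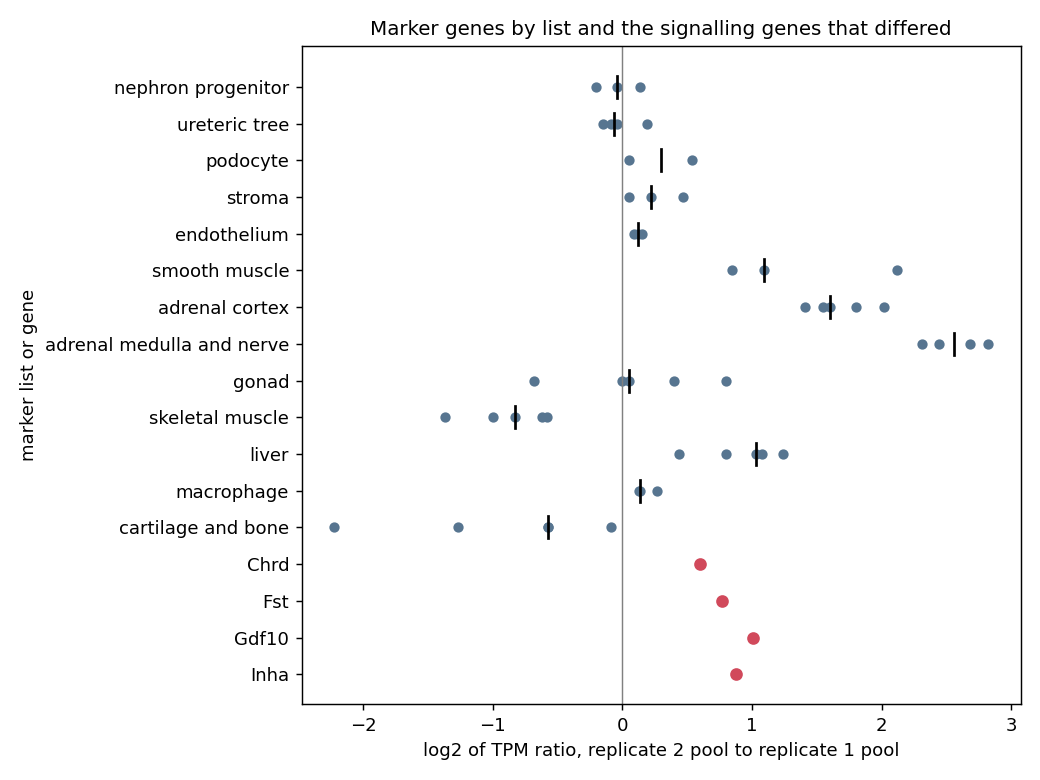
Log2 of the TPM ratio of the replicate 2 pool to the replicate 1 pool for each marker gene by list (blue; black bars are list medians) and for the 4 signalling genes that differed (red). The adrenal medulla and nerve list has the largest median at 2.56, skeletal muscle the lowest at -0.83, and the 4 signalling genes lie between 0.60 and 1.01; Sry, at 0 in both pools, is not drawn.

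The transcript tables give for each transcript its percentage of the gene's TPM. Of the 46 detected signalling genes, 15 had a single annotated transcript, among them Fst, Smad9 and Acvr1b, and 31 had 2 or more. The leading transcript was the same in both libraries for 30 of those 31, against 91.6% of 10184 genes with 2 or more transcripts. In 14 of them it held 90% or more in both libraries, as for Id1-201 at 93.9% and 96.3% and Id3-201 at 93.2% in both. Smad2-205 held 80.0% and 82.8%, Bmp7-201 80.0% and 81.5%, and Bmp4-201 72.2% and 73.2%. The rest of Bmp7 was a retained-intron transcript, Bmp7-202, at 20.1% and 18.5%. Where Bmp4 split further, into Bmp4-202 at 15.5% and 17.6%, both transcripts encode the same protein.

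Among the detected genes, 4 had protein-coding transcripts with different coding sequences, each at 10% or more in both libraries, namely Acvr2b, Tgfbr2, Tgfb2 and Eng. For the first 3 the difference is an in-frame stretch, shown in capitals with 12 bases on either side in lower case. These stretches set apart the coding forms of the annotated transcripts, and protein was not measured. The stretches are read on the coding strand from the GENCODE M21 transcripts, on build mm10, and lie in coding exons.
Acvr2b-202: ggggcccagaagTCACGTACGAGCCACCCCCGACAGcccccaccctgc
Tgfbr2-202: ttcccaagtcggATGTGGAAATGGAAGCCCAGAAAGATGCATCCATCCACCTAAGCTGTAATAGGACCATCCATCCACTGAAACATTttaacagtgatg
Tgfb2-206: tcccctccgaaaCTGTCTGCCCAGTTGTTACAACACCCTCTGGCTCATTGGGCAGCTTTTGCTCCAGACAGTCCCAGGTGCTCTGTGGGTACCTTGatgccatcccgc

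The Acvr2b stretch is 24 bases, or 8 codons, at chr9:119428201-119428224 on the plus strand, after base 370 of the coding sequence, and is the start of a longer exon that begins 24 bases later in the shorter form. The letters alone would allow 3 placements, and the annotated exon starts fix this position. The longer form, Acvr2b-202 with 536 codons, held 62.4% and 65.6% of the gene's TPM, and Acvr2b-201 with 528 codons held 37.6% and 34.4%. The quantifier's intervals for the longer and shorter form overlapped narrowly in replicate 1, at 11.5 to 17.2 and 6.26 to 11.7 TPM. They did not overlap in replicate 2, at 12.4 to 17.6 and 5.57 to 10.4 TPM.

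The Tgfbr2 stretch is a whole exon of 75 bases, or 25 codons, at chr9:116158271-116158345 on the minus strand, after base 94 of the coding sequence. The longer form, Tgfbr2-202 with 592 codons, held 31.1% of the TPM in both libraries, and Tgfbr2-201, with 567 codons, held 68.9% in both. The inserted codons fall in the part of the receptor ahead of its kinase, and the split was the same in both pools to within 0.01 percentage points.

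The Tgfb2 stretch is a whole exon of 84 bases, or 28 codons, at chr1:186690721-186690804 on the minus strand, after base 346 of the coding sequence, in the part of the precursor ahead of the mature ligand. The form with it, Tgfb2-206, held 17.5% and 11.7%, and the form without it, Tgfb2-201, held 40.2% and 34.9%. Tgfb2 was also the single gene whose leading transcript differed between libraries. The retained-intron transcript Tgfb2-205, 898 nt long, was second at 29.2% in replicate 1 and first at 43.8% in replicate 2. Coding transcripts made up 57.7% and 46.6% of Tgfb2. In TPM the 2 pools were closer for Tgfb2-201, at 5.35 and 6.63, than for Tgfb2-205, at 3.88 and 8.32.

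Eng was split 3 ways. Eng-201 with 653 codons held 61.1% and 54.7%, and Eng-202 with 641 codons, which shares its first 613 codons with Eng-201 and then ends differently, held 19.1% and 15.5%. Eng-205 lacks 3 bases of the Eng-201 coding sequence, at chr2:32657516-32657518, and held 10.6% and 21.9%. The intervals of Eng-205 did not overlap between the pools, at 3.87 to 8.70 TPM in replicate 1 and 10.2 to 17.8 TPM in replicate 2.

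Kcp was led in both libraries by Kcp-208, a transcript of 971 nt annotated for nonsense-mediated decay, at 31.4% and 33.9%. The main coding transcript Kcp-203, 4885 nt long, held 23.8% and 19.8%, or 4.65 and 4.48 TPM. Kcp and Tgfb2 were the 2 detected genes with under 75% of their TPM in protein-coding transcripts in both libraries, a state found for 18.1% of 13387 detected protein-coding genes. On coding transcripts alone, an alternative chosen after these shares were seen, Kcp lay below Bmper past replicate error, which the pair over all transcripts did not exceed.

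The share of the transcript that led in replicate 1 differed past replicate error for 1 of the 31 genes. By definition 95% of genes lie within that error, so 1 such gene does not set these genes apart. Acvrl1-205 held 41.7% and 59.7%, a gap of 18.1 percentage points where 95% of genes at 10 to 30 TPM differed by less than 14.6. The gap was mirrored by Acvrl1-201, at 25.8% and 7.06%, whose coding sequence has the same length, 1506 nt. For Tgfb2, in the same range of TPM, the replicate 1 leader Tgfb2-201 had a gap of 5.23 percentage points, within the error. The replicate 2 leader Tgfb2-205, at 29.2% and 43.8%, moved by slightly more than 14.6 but is not the transcript this count compares. Acvr1-203 went from 66.5% to 87.0% and Chrdl1-202 from 85.4% to 57.0%, both within the wider error of their lower levels, 25.7 and 44.8 percentage points.

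**Figure D5:**
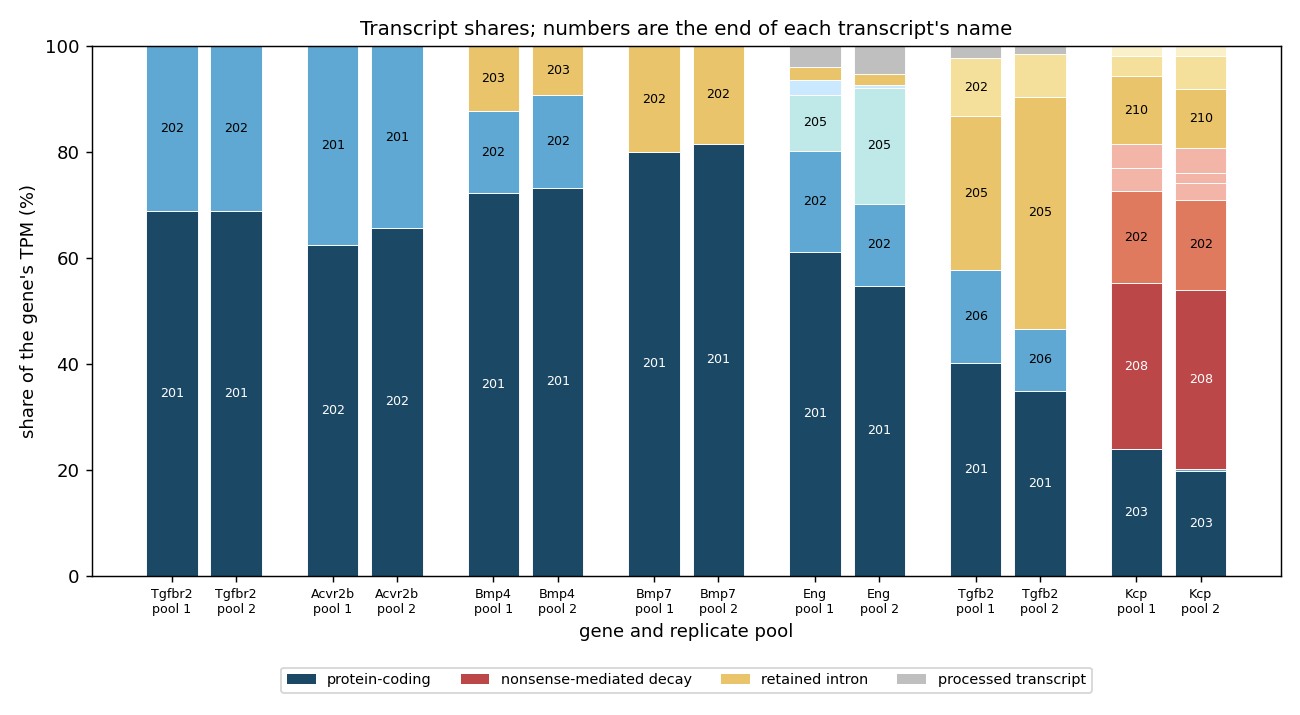
Share of each gene's TPM held by each annotated transcript, in percent, for 7 genes in both pools; blue shades are protein-coding, red shades nonsense-mediated decay, yellow shades retained-intron and grey processed transcripts, with the end of the transcript name printed on shares above 9%. Tgfbr2 and Acvr2b keep similar splits in both pools, Tgfb2-205 takes a larger share in the replicate 2 pool, and Kcp shows mainly nonsense-mediated decay and retained-intron transcripts.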

How the data were processed

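Total RNA libraries of 2 pools in 1 group were analysed, each with a gene and a transcript table on build mm10 with GENCODE M4, per the text files deposited beside the tables. Aligner, quantifier and strand setting were not given in the sources used here. Genes that overlap or lie antisense to each other are therefore uncertain. The authors' expected counts estimate the reads of each feature. The deposited TPM and FPKM values are adjusted for length, over all features including spike-ins (5.78% and 7.34% of TPM). The deposited percent of each gene held by each transcript and the score columns that bound each transcript's TPM interval are the authors', per the file headers. Names, transcript classes, coding sequences and coordinates came from GENCODE M21 (42462 of 43346 genes, 98.0%, matched by identifier), and 142 of 159 transcripts of the 55 genes had the deposited length there. The further ligand gene Gdf1 found no match and is left out. The marker lists leave out 2 genes that are not reported here. The tables held 0 columns of other samples.

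The genes, lists, pairs and rules were chosen with earlier results of these data known. All 55 genes are named, with the 3 highest of each further list and any that differed between pools. For transcripts, genes whose leading transcript differed or was not of the protein-coding class are named, with Fst, Smad2, Smad9, Acvr1b, Bmp7, Bmp4, Id1 and Id3. Acvr2b, Tgfbr2, Eng, Acvrl1, Acvr1 and Chrdl1 transcripts, and the further genes Dlx5 and Amhr2, were chosen after their values were seen. Replicate error used mean TPM bins with edges at 1, 3, 10, 30 and 100 over genes detected in both libraries. Log2 differences used a pseudocount of 1, and genes below 1 TPM took the lowest bin. Alternatives used edgeR 4.0.16 TMM factors and DESeq2 1.42.0 size factors in R 4.3.3, and the rest ran in Python 3.11.15 with pandas 2.3.3, numpy 2.4.6, scipy 1.17.1 and matplotlib 3.10.9. The pool rule was also run on simulated counts without differences in tissue content, which cannot show how it performs on these pools. Intervals of the count ratios are at 95% and cover counting error only. A gene with 0 counts can have up to 3.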

Additional observations from a re-analysis of the deposited data

How the results depend on the processing

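The number of detected genes, 46 of 55, was 48 at 0.5 TPM, 35 at 5 TPM, 43 with FPKM and 46 after rescaling TPM over nuclear genes, and 47 in each library alone. Resolved pairs numbered 14 to 24 of 33 over the alternatives, against 21, and 22 and 24 in the single libraries. Beyond the pairs given above, Bmp7/Bmp4 and Chrd/Chrdl1 were resolved in the replicate 2 library alone. With 1 error over all genes, Bmp4/Bmp2, Inhba/Inha, Tgfb2/Tgfb3, Acvrl1/Tgfbr1, Acvr2a/Acvr2b, Smad2/Smad3 and Smad4/Smad5 were no longer resolved. Resolved neighbours numbered 16 of 45, 19 in either library alone, and 6 with 1 error taken over all genes above 0 in place of errors by abundance. In that last setting the error of scarce genes is applied to abundant ones. Coding transcripts only, chosen after the transcript shares were seen, gave 46 detected, 22 pairs and 20 neighbours. Genes that differed between pools numbered 4, with 3 under TMM or DESeq2 factors, 4 after rescaling, 6 at a minimum of 20 counts, 8 with no count filter (adding Bmp8a, Gdf5, Gdf15 and Gdf6) and 1 at 2-fold (Gdf10). The same leading transcript was found in 23 of 24 genes at 5 TPM and in 23 of 23 over coding transcripts. Rescaling multiplied every TPM by 1.10 to 1.11 alike within a library. No single library could be left out of the pool difference or the leading transcript, which need both. Depth limits Grem1, Nog, Inhbb, Gdf6, Gdf7, Gdf15, Bmp8a and Bmp8b, each under 40 counts per library. No paired analysis was possible because there is 1 group.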
